A study of Mus musculus with 4 samples.

Results

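The Ly6 surface antigens described here are 6 mouse genes, Ly6a, Ly6c1, Ly6c2, Ly6d, Ly6e and Ly6k. They were picked by symbol from the 32285 genes counted in blood mononuclear cells, with earlier results of these data known. The blood came from the inbred strains labelled BL/6 and SM/J at 12 and 20 months of age. No treatment, transgene or engineered allele is given for any group. Per the labels' protocols, cells were taken by cardiac puncture, enriched on a Lymphoprep gradient, spun slowly to remove platelets, freed of red cells by lysis and made into 10x Genomics 3' libraries with multiplexing tags. Each strain was 1 run of droplets holding both ages, and the deposited matrices, called libraries here, split it by age, so each of the 4 combinations of strain and age is 1 library. Strain and droplet run therefore cannot be told apart, and neither can the match of SM/J transcripts to a reference from the other strain. A library holds 3 tag oligos, and its cells with 1 leading tag are called an aliquot. The labels do not say if each tag stood for 1 mouse, so aliquots give a range and not replicates, and no difference between libraries has a test.

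Ly6 proteins are small, disulfide-bonded proteins of the three-finger fold, most of them held on the outer face of the plasma membrane by a glycosylphosphatidylinositol (GPI) anchor. Antibodies to them are standard tools of mouse immunology. Ly6a is Sca-1, used to sort blood stem cells and found on many activated lymphocytes. Ly6c2 and Ly6c1 encode the nearly identical Ly-6C antigens, by which classical monocytes are separated from nonclassical ones and which also mark plasmacytoid dendritic cells and some T and NK cells. Ly6d is a marker of B lineage commitment and of a plasmacytoid dendritic cell branch, Ly6e is a broadly expressed gene inducible by interferon, and Ly6k is known mainly from male germ cells. Inbred strains are known to differ in Ly6 haplotype, and which haplotype SM/J carries was not examined here.

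All 6 genes lie within 350 kb of chromosome 15 (GRCm38, chr15:74762056-75111970). In order along the chromosome they are Ly6d (chr15:74762056-74763620, minus strand, 3 exons), Ly6k (chr15:74796874-74799986, minus strand, 4 exons), Ly6e (chr15:74955051-74959905, plus strand, 4 exons), Ly6a (chr15:74994877-74998031, minus strand, 3 exons), Ly6c1 (chr15:75044018-75048830, minus strand, 4 exons) and Ly6c2 (chr15:75108158-75111970, minus strand, 4 exons). The exon counts are those of the first listed transcript of each gene. Ly6c1 and Ly6c2 are close copies: 384 of 393 coding bases were the same, and the last parts of their transcripts, where 3' tags fall, were 98.2% the same over 393 aligned bases. Of 1520 distinct windows of 90 bases in the 3' ends of Ly6c1 transcripts, 134 (8.82%) also stood exactly in Ly6c2. A read from such a window belongs to both genes, so the split between this pair is uncertain where the counting met one. Ly6a was 84.7% the same as Ly6c1 in coding sequence and 84.4% the same as Ly6c2. No other pair of members shared a window, and their coding sequences were 61.6% to 74.5% the same.

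The coding sequences of Ly6c1 and Ly6c2 are nearly the same, but their levels over the cell classes were not. The bases before 1 start site of each are therefore shown. RefSeq promoters (GRCm38.p6) were matched for 2 of the 6 members, with 2 promoters each. The pair with the highest alignment score was taken, so the likeness below is that of the best pair. The motif matches below are for this pair only, without the other promoter of each gene. Both sequences are the 250 bases before the start site of the promoter taken, 5′ to 3′ on the minus strand. Capitals mark bases that differ or have no partner in the alignment of the pair. Ly6c1 is chr15:75048838-75049087 and Ly6c2 is chr15:75111972-75112221.
Ly6c1: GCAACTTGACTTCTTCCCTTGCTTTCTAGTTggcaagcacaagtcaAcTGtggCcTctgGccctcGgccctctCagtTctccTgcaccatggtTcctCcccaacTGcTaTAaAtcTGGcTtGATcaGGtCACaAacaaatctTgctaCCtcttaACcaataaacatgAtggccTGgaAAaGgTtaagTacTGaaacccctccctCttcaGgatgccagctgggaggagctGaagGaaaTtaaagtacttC
Ly6c2: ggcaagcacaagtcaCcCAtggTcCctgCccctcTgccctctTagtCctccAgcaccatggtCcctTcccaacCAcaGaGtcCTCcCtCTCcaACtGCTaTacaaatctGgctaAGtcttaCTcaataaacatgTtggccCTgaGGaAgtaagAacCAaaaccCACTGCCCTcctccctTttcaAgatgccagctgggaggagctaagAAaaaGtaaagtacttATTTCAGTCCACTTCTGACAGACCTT
Of 215 paired bases 167 were the same (77.7%), against 97.7% in the coding sequences. An interferon-stimulated response element, searched on both strands as GAAA, any 2 bases and GAAA, stood in neither window, and 978 of 32851 RefSeq windows of the same length (2.98%) held it. A gamma-activated site, searched as TTC, any 3 bases and GAA, stood in neither, and 2306 windows (7.02%) held it. A missing match says only that these letters are not in the window.

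Of 12299 deposited cells 11596 were kept, 2407 to 3398 per library. Their median depth was 4060 to 4914 UMIs (unique molecular identifiers, each standing for 1 captured transcript) in 3 libraries and 8837 in SM/J at 20 months. No cell barcode was shared between libraries of 1 run, and 1 to 3 were shared between libraries of different runs. Cells were clustered without the Ly6 genes and named from marker genes, so every class name below means "like" that class. All 8 B cell, 9 T cell, 9 NK cell, 9 classical and 9 nonclassical monocyte, 12 macrophage and 9 plasmacytoid dendritic cell markers were detected in the clusters so named. In 4 classes different clusters held the strains: follicular B-like cells (BL/6 mostly in cluster 0, SM/J in 10), classical monocyte-like cells (4 against 25), nonclassical monocyte-like cells (5 against 23), and other B-like cells, the B-like clusters that were neither follicular nor transitional (1 for BL/6, then 12, 13, 19 and 22 for SM/J). Interferon-response genes (Ifi44, Ifi202b and Ifi44l) were among the leading genes of cluster 25 beside the classical markers Vcan and Chil3. Cluster 22 held 891 cells, 868 of them from SM/J at 20 months and 19 from SM/J at 12 months. It may be that library rather than a cell type, which was not tested. Its leading genes included Zcwpw1, Igkv17-127 and Igkv14-126. Other B-like cells of the same library also lay in clusters 12 and 13, 374 and 72 cells, beside 196 and 400 SM/J cells at 12 months. Levels are CPM, the UMIs of a gene in a class of a library with the class total scaled to 1000000, with exact Poisson 95% intervals that cover counting error only. Since 3' tags are counted once per transcript, levels were not scaled by gene length.

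The members differed in how many cells held them. Ly6e had 75693 UMIs and was seen in 88.3% of kept cells, Ly6d had 50503 (49.6%), Ly6a 28656 (34.3%), Ly6c2 10618 (14.9%), Ly6c1 309 (1.81%) and Ly6k 207 (1.27%). By the median over libraries, Ly6d was highest in transitional B-like cells, Ly6a in other B-like cells, Ly6c2 in plasmacytoid dendritic cell-like cells, Ly6c1 in CD4 naive T-like cells and Ly6e in nonclassical monocyte-like cells. Plasmacytoid dendritic cell-like cells were the class with 4 members (Ly6a, Ly6c2, Ly6d and Ly6e) at 92.3 CPM or more in every library, on only 10 to 45 cells a library. Across 41 sums of a class in a library with at least 50 cells, the correlation of members' log2 levels ran from −0.58 (Ly6c2 with Ly6d) to 0.59 (Ly6d with Ly6k). The close copies Ly6c1 and Ly6c2 had r = −0.08. These sums share libraries and depth, and the correlations are descriptions.

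**Figure D1:**
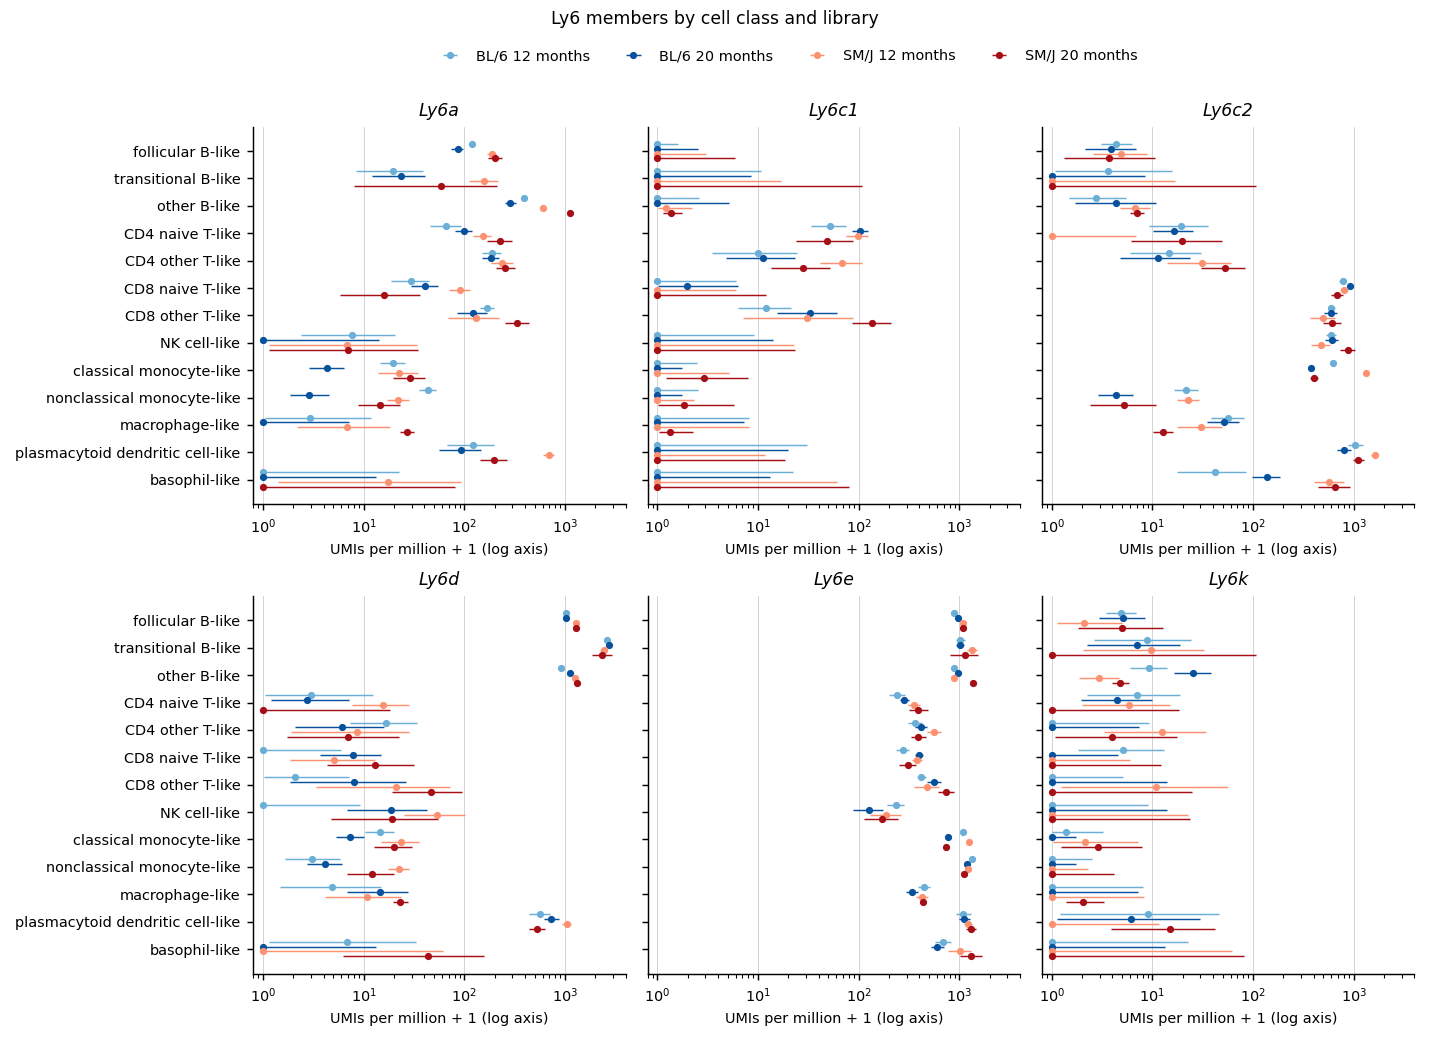
Level of each member (CPM + 1, log axis) in 13 cell classes; each point is 1 of the 4 libraries and each bar its exact Poisson 95% interval. Ly6d sits above 500 CPM in the B-like and plasmacytoid dendritic cell-like classes and below 55 CPM in the other classes drawn, while Ly6c1 leaves 0 by more than 2 CPM only in CD4 T-like and CD8 other T-like cells.

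Ly6d separated B-like and plasmacytoid dendritic cell-like cells from the rest. In transitional B-like cells, recent arrivals from the marrow, it stood at 2624 and 2713 CPM in BL/6 at 12 and 20 months and at 2424 and 2338 CPM in SM/J, the last from 12 cells. Follicular B-like cells held 1024 and 1017 CPM in BL/6 and 1271 and 1292 CPM in SM/J. Other B-like cells held 919.7, 1129, 1248 and 1316 CPM in the same order. Transitional B-like cells were thus higher than both other B-like classes in all 4 libraries, and the ranges of those did not reach them.

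Plasmacytoid dendritic cell-like cells held Ly6d at 559 and 733 CPM in BL/6 and 1037 and 527 CPM in SM/J. Plasma cell-like cells of BL/6 at 20 months, 43 cells, held 181 CPM (147 to 220.4). NK-like cells came next by median at 18 CPM, a gap from the classes above. With each cell thinned to 1000 UMIs, 56.5% to 66% of follicular B-like cells and at most 2.04% of NK-like cells had a Ly6d UMI. The NK-like share is set beside it as a reference, and whether it is background was not tested. Median depths were 2502.5 to 4642 UMIs in NK-like cells against 2957 to 3481 in follicular B-like cells. In NK-like cells Ly6d had 0, 5, 9 and 3 UMIs in the 4 libraries, and the summed B cell markers there stood at 33.1, 117, 299 and 128 CPM. The part of those markers in the Ly6d counts was not tested.

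Ly6e was present in every class, and of the 13 classes drawn NK-like cells had the least. Nonclassical monocyte-like cells held 1332, 1186, 1224 and 1123 CPM in BL/6 at 12 and 20 months and SM/J at 12 and 20 months. Plasmacytoid dendritic cell-like cells held 1094 to 1308 CPM, follicular B-like cells 877 to 1086 CPM and transitional B-like cells 1007 to 1329 CPM. T-like classes were lower, with medians of 318.7 CPM in CD4 naive, 343 in CD8 naive, 403 in CD4 other and 519.7 in CD8 other T-like cells. NK-like cells held 232, 124, 188 and 170.1 CPM, and their range did not reach that of the next class. Neighbours above NK-like cells in this order overlapped in range at every step. Platelet-like cells, at a median depth near 1000 UMIs, held 35.9 and 55.1 CPM in BL/6, the lowest level of a class with over 100 cells.

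By the median over libraries Ly6a was highest in other B-like cells. It stood there at 395 CPM (aliquots 350.3 to 451) in BL/6 at 12 months, 286 (263 to 322) in BL/6 at 20 months, 605 (580.3 to 624) in SM/J at 12 months and 1112 (1099 to 1119.5) in SM/J at 20 months. The 4 libraries did not overlap in their aliquots. In SM/J at 20 months these cells held 97.2% of all Ly6a UMIs, against 31.1% in BL/6 of that age. The class was 1395 of 2689 kept cells in the former and 141 of 3102 in the latter. Its shares of Ly6d (94.8% against 19.7%) and Ly6e (80.5% against 5.7%) differed the same way. CD4 other T-like cells came next by median with 184 to 255 CPM, below every library of other B-like cells. CD4 other T-like cells were cluster 11, where regulatory T cell markers stood at 94.3% of their highest cluster levels on average. Effector or memory markers there stood at 33.7% and naive markers at 29.1%. Follicular B-like, plasmacytoid dendritic cell-like, CD8 other and CD4 naive T-like cells followed with overlapping ranges, while NK-like cells held at most 6.62 CPM from 0 to 3 UMIs a library.

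Within B-like cells of SM/J Ly6a differed between clusters. Among SM/J cells at 20 months it stood at 1265 CPM in cluster 22 (aliquots 1252 to 1273), 904 in the dividing cluster 19, 747 in cluster 12, 535 in cluster 13 and 216 in the follicular cluster 10. At 12 months the SM/J values were 715 in cluster 12, 527 in cluster 13 and 191 in cluster 10. Within these 3 clusters the ages lay close in their sums, although 1 aliquot of cluster 13 at 20 months, 12 cells, was at 291.5 CPM. In cluster 0 the few SM/J cells, 36 and 21, held 108 and 32.3 CPM, from 11 and 2 UMIs. Cluster 22 had 19 cells at 12 months and 868 at 20 months. BL/6 cells of cluster 1 held 399 CPM at 12 months and 263 at 20 months, and transitional B-like cells of BL/6 held 18.5 and 22.3 CPM. Ly6d moved otherwise over the same clusters, at 1463 CPM in cluster 22, and at 1345 CPM at 12 months and 852 at 20 months in cluster 13. Of 1395 thinned other B-like cells of SM/J at 20 months, 832 had Ly6a, 905 had Ly6d and 561 had both.

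**Figure D2:**
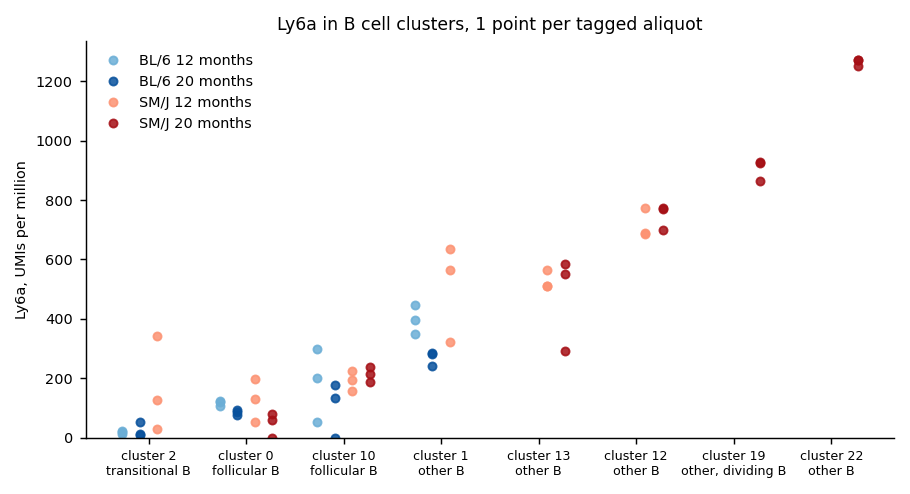
Ly6a level (CPM, linear axis) in the B-like clusters, 1 point per tagged aliquot, coloured by strain and age; a group is drawn where its library has at least 20 cells in the cluster. The SM/J aliquots at 20 months lie at 1252 to 1273 in cluster 22, while in cluster 13 the 12-month SM/J aliquots lie at 509.7 to 563 and 1 aliquot of 12 cells at 20 months lies at 291.5.

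Ly6a in plasmacytoid dendritic cell-like cells stood at 119.8 and 92.3 CPM in BL/6 and at 686 and 198 CPM in SM/J, from 10, 18, 45 and 27 cells. SM/J at 12 months was highest in all 3 of its aliquots (571 to 786), against at most 307 in any other aliquot. Of its 45 thinned cells 23 had Ly6a, 33 had Ly6c2 and 19 had both. These classes were too small for the age and strain ratios below, which were kept to the 8 classes that reached 50 cells in all 4 libraries.

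Ly6c2 was highest in 5 classes by the median over libraries, at overlapping levels. Basophil-like cells ranked below them at a median of 354 CPM, with a range (40.8 to 646) that overlapped theirs, on 11 to 57 cells a library. Plasmacytoid dendritic cell-like cells held 1038, 805, 1616 and 1110.3 CPM in BL/6 at 12 and 20 months and SM/J at 12 and 20 months. CD8 naive T-like cells held 777, 915, 798 and 685 CPM, NK-like cells 596, 605, 469.6 and 869, CD8 other T-like cells 597, 592, 496 and 607, and classical monocyte-like cells 621, 371, 1318 and 402. Nonclassical monocyte-like cells held 3.31 to 21.7 CPM, below their classical counterparts in all 4 libraries.

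Most Ly6c1 counts were in T-like cells. CD4 naive T-like cells held 50.5 CPM (aliquots 38.7 to 56.6), 102 (84 to 118), 96.4 (90.3 to 103) and 47.2 (23.1 to 74.6), from 25, 118, 60 and 10 UMIs. They carried 64.1%, 86.8% and 73.2% of all Ly6c1 UMIs in the first 3 libraries and 19.2% in SM/J at 20 months. CD4 other T-like cells held 9.06, 10.3, 68 and 27 CPM, and CD8 other T-like cells 11, 31.7, 29.8 and 136 CPM. In SM/J at 20 months CD8 other T-like cells carried 40.4% of Ly6c1 UMIs and other B-like cells 13.5%. The counts in other B-like cells were 7 UMIs at 0.366 CPM. The CD8 other T-like class is cluster 9. Its CD8 markers stood at 100%, CD4 markers at 24.2% and regulatory markers at 25.9% of their highest cluster levels on average. CD8 naive T-like cells were at 0.293% for the CD4 markers. The part of CD4 cells in the cluster 9 counts was not tested. The 3 T-like classes overlapped in range, and the other classes drawn held at most 1.9 CPM. Ly6c1 was among the leading genes of the CD4 naive T-like cluster, although it took no part in the clustering. Follicular and transitional B-like, NK-like, basophil-like and plasmacytoid dendritic cell-like cells had no Ly6c1 UMI in any library.

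The balance of the close copies differed between T-like classes. CD8 naive T-like cells had 571, 947, 589 and 227 Ly6c2 UMIs and 0, 1, 0 and 0 Ly6c1 UMIs. CD4 naive T-like cells had 9, 18, 0 and 4 Ly6c2 UMIs beside the Ly6c1 counts above. CD4 other T-like cells held both, Ly6c2 at 13.6, 10.3, 30.2 and 51 CPM beside the Ly6c1 levels above. So did CD8 other T-like cells, whose cluster also held CD4 markers at the level given above. In SM/J at 20 months, 6 of 28 thinned cells of that class had Ly6c1, 6 had Ly6c2 and 2 had both.

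**Figure D3:**
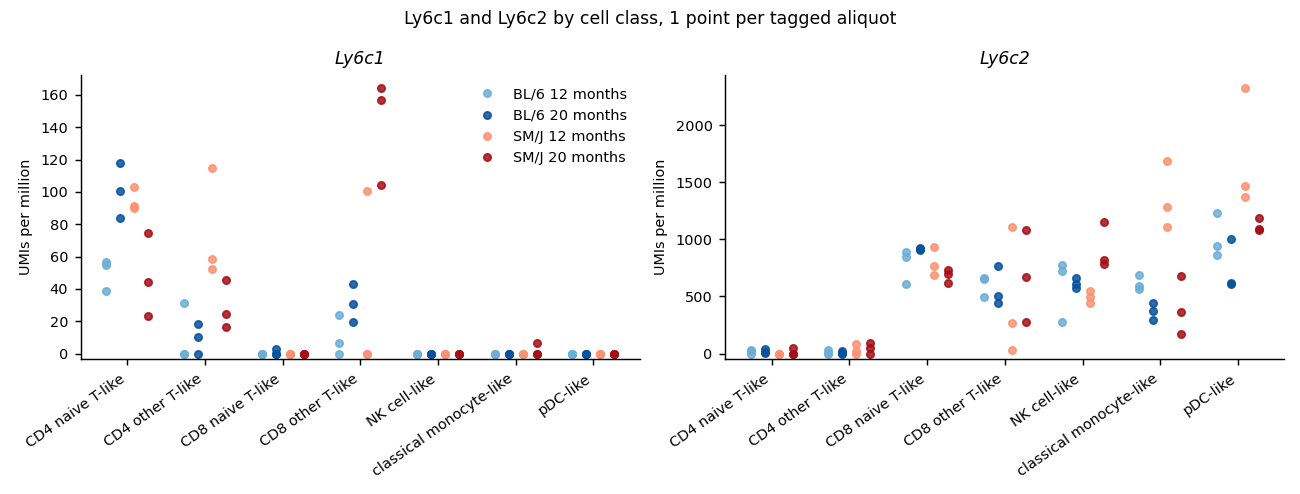
Ly6c1 (left) and Ly6c2 (right) in CPM (linear axes of different range) in 7 cell classes, 1 point per tagged aliquot, coloured by strain and age; pDC is plasmacytoid dendritic cell. Ly6c1 is at or near 0 in CD8 naive T-like, NK-like and pDC-like cells, where Ly6c2 lies between 279.5 and 2326.

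Ly6k was close to the limit of detection. In classes of at least 10 cells its highest level was 24.5 CPM, in other B-like cells of BL/6 at 20 months, from 22 UMIs. A single cell of cluster 19 at 609 CPM carried most of them. Elsewhere in that class it stood at 8.21, 1.92 and 3.82 CPM, and NK-like, basophil-like and nonclassical monocyte-like cells had none.

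The first comparison set 20 against 12 months within each strain, the ageing contrast named in the study's design. A pair of a member and a class entered where the member's mean over both libraries was at least 20 CPM, which 20 of 48 pairs did in BL/6 and 24 in SM/J. A filter of this kind keeps members through the library where they are high, so the counts are descriptions. A ratio is called here when CPM + 1 differed by more than 1.5-fold, or 0.585 on the log2 scale. In BL/6 5 pairs were called, 2 higher and 3 lower at 20 months, against 12.8% of all pairs of a gene and a class. In SM/J 10 were called, 4 higher and 6 lower, against 21.4% of all pairs.

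Ly6c2 was lower at 20 months in classical monocyte-like cells of both strains. In BL/6 the aliquots ran from 568 to 691 CPM at 12 months and from 297 to 445 at 20 months, and in SM/J from 1107 to 1688 and from 171 to 681, with no overlap in either. For BL/6 the log2 ratio was −0.74 (95% interval −0.84 to −0.64). For SM/J it was −1.71 (−1.87 to −1.55). In SM/J cells of cluster 25 alone the level went from 1344 to 517 CPM, in 111 and 96 cells. The other SM/J cells of the class were in cluster 4, 6 at 12 months and 22 at 20 months, the latter at 82.9 CPM. Of all genes, 6.94% were past 1.5-fold in this class in BL/6 and 16.5% in SM/J. The share of thinned cells with a Ly6c2 UMI went from 37.1% to 25.4% in BL/6 and from 59% to 20.3% in SM/J. Both ratios kept their sign and stayed past 1.5-fold in all 13 alternative settings, from −0.83 to −0.63 in BL/6 and from −2.04 to −1.30 in SM/J.

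Other classes with Ly6c2 differed from each other with age. Nonclassical monocyte-like cells, below the level for a ratio, were lower at 20 months in both strains with aliquots apart. In BL/6 they went from 20.6 to 3.31 CPM, from 50 and 16 UMIs. In SM/J they went from 21.7 to 4.26 CPM, from 61 and 5 UMIs. Plasmacytoid dendritic cell-like cells, too few for a ratio, were lower at 20 months in both strains by their levels above, with SM/J aliquots apart (1084 to 1187 against 1372 to 2326) and BL/6 aliquots overlapping (607 to 1003 against 865 to 1231). CD8 naive T-like cells were within 1.5-fold between the ages in both strains, with a log2 ratio of 0.24 (0.09 to 0.39) for BL/6 and one of −0.22 (−0.45 to 0.00) for SM/J. NK-like cells of BL/6 differed by 0.02 (−0.26 to 0.30). NK-like cells of SM/J were higher at 20 months, with aliquots of 784 to 1155 CPM against 444 to 550.4 and a log2 ratio of 0.89 (0.48 to 1.30). In that class 39.7% of all genes were past 1.5-fold. Ly6c2 in CD4 other T-like cells of SM/J, 17 UMIs against 8, counted among the called pairs at 0.74 but its interval ran from −0.52 to 2.10 and its aliquots overlapped.

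Ly6c1 went opposite ways with age in CD4 naive T-like cells of the strains. In BL/6 it was higher at 20 months by 1.00 (0.37 to 1.67) on the log2 scale, and in SM/J it was lower by −1.02 (−2.12 to −0.05), with aliquots apart in both. The SM/J value rests on 10 UMIs at 20 months, and without aliquot 2 it was −0.52. The BL/6 ratio ran from 0.84 to 1.20 over the alternatives. Ly6c1 was also lower in CD4 other T-like cells of SM/J, 9 UMIs against 18, at −1.30 (−2.58 to −0.10). With at most 5% mitochondrial UMIs allowed per cell that value was 0.06.

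Ly6a in other B-like cells went opposite ways with age. It was lower at 20 months in BL/6, at −0.46 (−0.67 to −0.26), and higher in SM/J, at 0.88 (0.82 to 0.93), where 21% of all genes in the class were past 1.5-fold. With equal weight to the clusters that had at least 20 cells at both ages, the SM/J ratio was 0.05 and the BL/6 ratio −0.60. For SM/J these were clusters 12 and 13, so that value does not cover cluster 22 or 19. The 19 SM/J cells of cluster 22 at 12 months held 831 to 1692 CPM by aliquot. In follicular B-like cells the BL/6 ratio was −0.47 (−0.70 to −0.25) and the SM/J ratio 0.11 (−0.18 to 0.39). With equal weight to clusters 0 and 10 these were −0.79 and −0.27. That setting leans on small groups, 31 and 24 BL/6 cells in cluster 10 and 36 and 21 SM/J cells in cluster 0.

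In CD4 naive T-like cells Ly6a was higher at 20 months by near values, just past 1.5-fold for BL/6 at 0.59 (0.02 to 1.19) and just under it for SM/J at 0.58 (0.05 to 1.10), but aliquots overlapped. Without aliquot 3 the values were 0.04 and 0.28. In CD8 naive T-like cells of SM/J it stood at 89.5 CPM (aliquots 73.6 to 114) at 12 months and 15.1 (9.06 to 19.5) at 20 months, 66 UMIs against 5. That log2 ratio was −2.49 (−3.99 to −1.25), and −1.27 with called doublets kept. The BL/6 ratio in the same class was 0.46 (−0.31 to 1.26). In CD4 other T-like cells the ratios were −0.03 (−0.46 to 0.40) and 0.10 (−0.39 to 0.59).

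Nonclassical monocyte-like cells of BL/6 held Ly6a at 42.1 CPM (aliquots 39 to 48.1) at 12 months and 1.86 (1.26 to 2.5) at 20 months, 102 UMIs against 9. The log2 ratio was −3.91 (−4.59 to −3.18), where 7.4% of all genes were past 1.5-fold, and it stayed past it in all 13 alternatives, from −4.24 to −2.13. Summed B cell markers in these cells were 104 and 111 CPM, and summed erythroid markers 49.1 and 1130.4 CPM. Summed classical monocyte markers were 1970 and 1232 CPM, plasmacytoid dendritic cell markers 287 and 262, NK cell markers 11.6 and 4.14, and T cell markers 10.3 and 8.69. The part of these sums in the result was not tested. In SM/J the same class held 21 CPM (10.3 to 34.9) and 13.6 (8.8 to 19.7), below the level for a ratio.

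Ly6e was lower at 20 months in classical monocyte-like cells, with aliquots apart in both strains. The ratio of −0.50 (−0.57 to −0.43) for BL/6 was within 1.5-fold and that of −0.76 (−0.89 to −0.63) for SM/J was past it. It was higher in other B-like cells of SM/J at 0.65 (0.60 to 0.70), and 0.06 with equal weight to clusters 12 and 13. In NK-like cells of BL/6 it was lower at −0.89 (−1.48 to −0.33), 35 UMIs against 105. CD8 naive T-like cells differed by 0.55 (0.30 to 0.80) when from BL/6 and by −0.32 (−0.66 to 0.01) when from SM/J, both within 1.5-fold. Ly6d was within 1.5-fold between ages in both B-like classes of both strains, with log2 ratios from −0.01 to 0.30. Ly6d in other B-like cells of SM/J was at 0.08, and at −0.29 with equal weight to clusters 12 and 13. In NK-like cells of SM/J it was among the called pairs, 3 UMIs against 9, with an interval of −3.76 to 0.45.

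**Figure D4:**
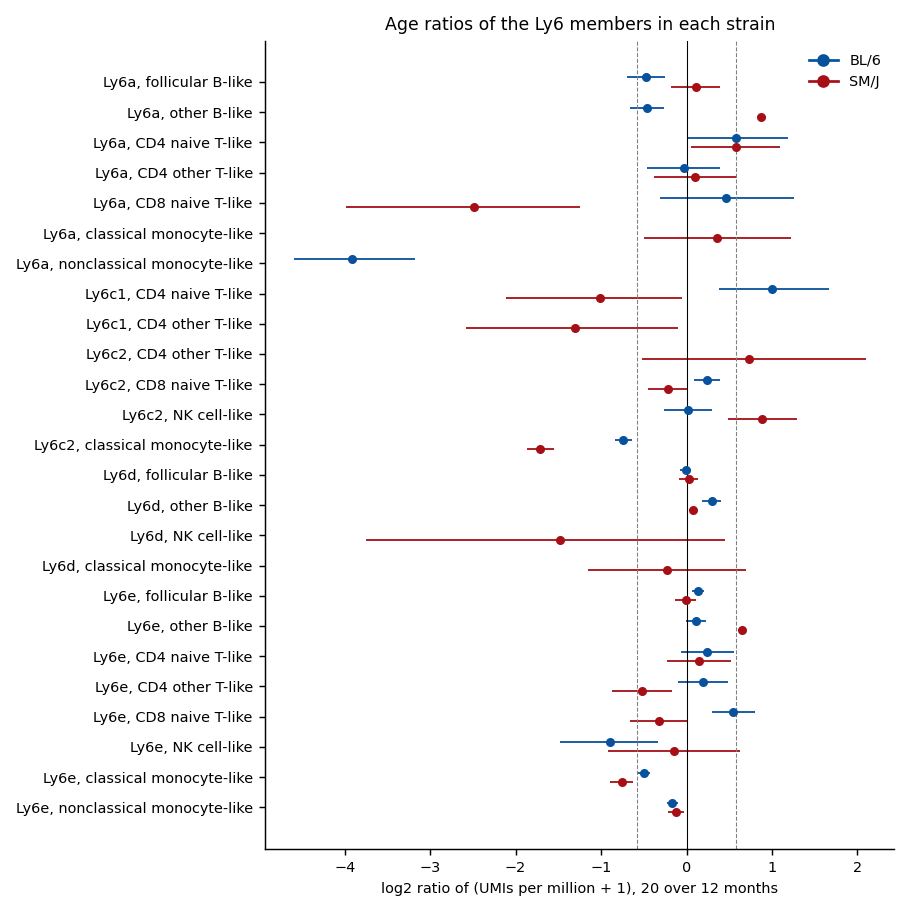
Log2 ratio of (CPM + 1), 20 over 12 months, for each member and class past the level filter, in BL/6 (blue) and SM/J (red); bars are 95% intervals that cover counting error only and dashed lines mark 1.5-fold. Ly6c2 in classical monocyte-like cells lies at −0.74 and −1.71, and Ly6c1 in CD4 naive T-like cells lies on opposite sides of 0.

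Ly6e and Ly6a are known as targets of interferon, so 30 interferon-response genes were read in the same cells, of which 29 were in the files. In classical monocyte-like cells 16 of 18 measured list genes were past 1.5-fold lower at 20 months in BL/6 and none higher, with a median of −1.08, and 27 of 28 were lower in SM/J with a median of −1.86. Over all genes the medians were 0.01 and −0.02. Isg15, a ubiquitin-like protein induced by interferon, went from 112 to 19.8 CPM in BL/6 (−2.44). In SM/J Ifit3 went from 97.8 to 4.76 CPM (−4.10) and Ifit2 from 48.3 to 2.85 CPM (−3.68), both members of a family that binds foreign RNA. Ly6c2 and Ly6e were lower in the same cells of both strains, with smaller ratios than the list's median. Ly6a in the same cells was 0.35 (−0.49 to 1.23) in SM/J, and −0.48 without aliquot 1. In BL/6, below the level for a ratio, it stood at 18.4 CPM at 12 months and 3.3 at 20 months, from 46 and 16 UMIs, with aliquots apart.

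CD8 naive T-like cells had the list on opposite sides in the strains. This class is cluster 8, whose naive T cell markers stood at 50.5% of their highest cluster levels on average, just past the 50% asked for, beside 24.1% for effector or memory markers, with Gzmm as its first leading gene. CD4 naive T-like cells were at 92.6% and 0.689%. In BL/6 10 of 16 list genes were past 1.5-fold higher at 20 months and none lower, with a median of 0.75. Usp18, a protease that removes Isg15, went from 4.08 to 86 CPM there, from 3 UMIs at 12 months, and Rtp4 from 8.16 to 44.5 CPM. In SM/J 11 of 12 were lower with a median of −1.21, and Ifi27l2a went from 263 to 15.1 CPM (−4.04). Of all genes 16.7% and 23.4% were past 1.5-fold in this class in BL/6 and SM/J. Ly6a, Ly6c2 and Ly6e had the sign of the list's median in both strains, although of these only Ly6a in SM/J was past 1.5-fold. The summed NK cell markers in this class were 532, 266, 123 and 136 CPM in the order of libraries, and their part was not tested.

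The members stood beside the list in different ways in other classes. In nonclassical monocyte-like cells 8 of 12 list genes were lower in BL/6 (median −0.73) and 11 of 14 in SM/J (−0.71), while Ly6e differed by −0.17 and −0.12 and Ly6a in BL/6 by −3.91. In NK-like cells of BL/6 the list's median was −0.15 beside −0.89 for Ly6e. In CD4 other T-like cells of SM/J 6 of 11 list genes were lower (median −0.76), with Ly6e at −0.52 and Ly6a at 0.10. In other B-like cells of SM/J 2 of 7 were higher and none lower (median 0.26), beside 0.88 for Ly6a and 0.65 for Ly6e. The shares of all genes past 1.5-fold were 7.4% and 5.5% in nonclassical monocyte-like cells of BL/6 and SM/J, 29.5% in CD4 other T-like cells of SM/J and 21% in other B-like cells of SM/J, and the last is near 2 of 7. The list was chosen with earlier results of these data known and lends no separate support to a direction.

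**Figure D5:**
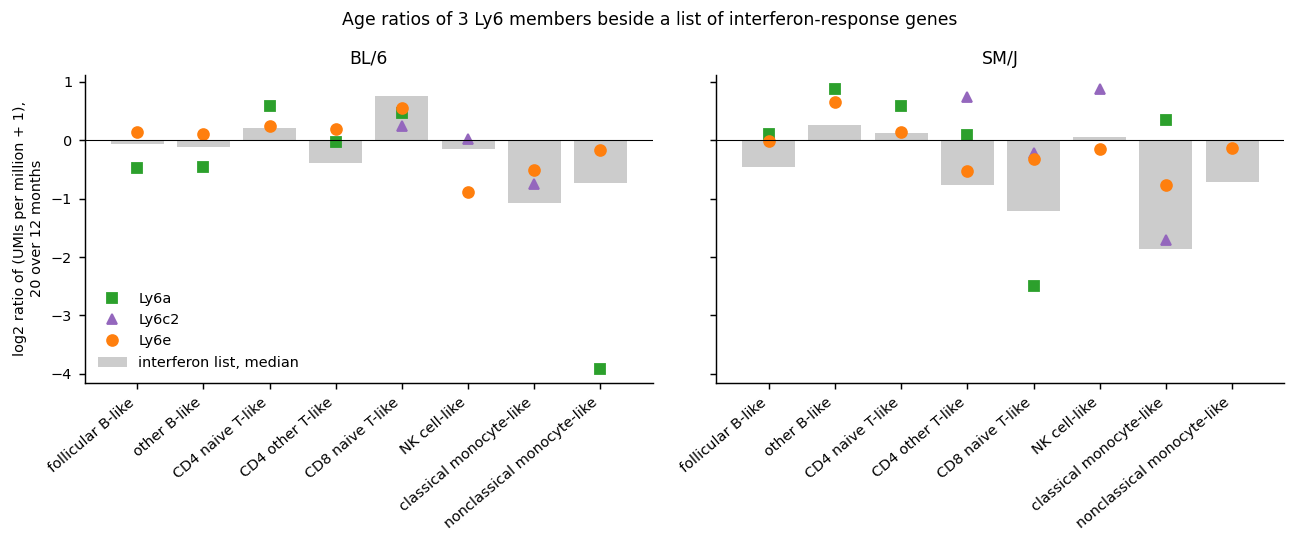
Age ratios (log2 of CPM + 1, 20 over 12 months) of Ly6a, Ly6c2 and Ly6e (symbols) beside the median of the interferon-response list (grey bars) in 8 cell classes of BL/6 (left) and SM/J (right); a missing symbol means a mean below 20 CPM. Ly6c2 and Ly6e lie below 0 with the list in classical monocyte-like cells of both strains, while in nonclassical monocyte-like cells Ly6e lies at −0.17 and −0.12 beside list medians of −0.73 and −0.71.

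The second comparison set SM/J against BL/6 at each age, the genetic background named in the study's title. At 12 months 11 of 24 measured pairs were called, 10 higher and 1 lower in SM/J, against 24.3% of all pairs of a gene and a class. At 20 months 6 of 20 were called, 4 higher and 2 lower, against 28.1%. A share of 30% at 20 months is near that of all genes.

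Ly6a was higher in B-like cells of SM/J at both ages. In follicular B-like cells at 12 months BL/6 stood at 118 CPM (aliquots 107 to 124) and SM/J at 186 (148 to 222). At 20 months they stood at 84.8 (77.7 to 91.5) and 200.3 (176 to 230.0). The log2 ratios were 0.65 (0.46 to 0.84) at the younger and 1.23 (0.92 to 1.54) at the older age. The former stayed past 1.5-fold in 10 of 12 alternatives, at 0.37 with at most 20% mitochondrial UMIs, and the latter in all 12. Most cells of the strains were in different clusters, and inside each cluster the few cells of the other strain did not repeat the 12-month difference. In cluster 10 at 12 months 31 BL/6 cells held 217 CPM (132 to 335) beside 191 (171 to 213) in SM/J, and in cluster 0 36 SM/J cells held 108 CPM (53.9 to 193) beside 116 (108 to 126) in BL/6. At 20 months BL/6 held 107 CPM (43.1 to 221) in cluster 10, from 7 UMIs, beside 216 (182 to 253) in SM/J, and in cluster 0 21 SM/J cells held 32.3 CPM (3.91 to 117), from 2 UMIs, beside 84.2 (72.9 to 96.7) in BL/6. In other B-like cells the ratios were 0.62 (0.51 to 0.73) and 1.96 (1.78 to 2.14), between cluster 1 and the SM/J clusters. The former stayed past 1.5-fold in 9 of 12 alternatives, at 0.49 with at most 20% mitochondrial UMIs, and the latter in all 12. Inside cluster 1 at 12 months 22 SM/J cells held 534 CPM (400.2 to 699) beside 399 (372 to 426) in BL/6. At 20 months the SM/J aliquots there, 2 to 5 cells each, held 58.8, 269.9 and 394.9 CPM beside 263 (228 to 303) in BL/6. In CD4 naive T-like cells, which were 1 cluster in both strains, Ly6a was on the higher side in SM/J with ratios of 1.21 (0.62 to 1.83) at the younger and 1.21 (0.69 to 1.70) at the older age. Aliquots of the strains overlapped at both ages, but the ratio stayed past 1.5-fold in all 12 alternatives at each.

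The strain difference of Ly6a in CD8 naive T-like cells changed sign with age, from 1.61 (0.90 to 2.37) at the younger to −1.34 (−2.86 to −0.05) at the older age. With called doublets kept the latter was −0.25. The interferon list in the same cells had medians of 0.80 and −1.29, with 11 of 16 genes higher at 12 months and 11 of 13 lower at 20 months, where 24.9% and 30.5% of all genes were past 1.5-fold. These ratios share their libraries with the age ratios above and are not separate evidence. In nonclassical monocyte-like cells Ly6a was −0.97 (−1.44 to −0.51) at 12 months, a direction that 3 of 12 alternatives turned.

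SM/J had more Ly6c2 in classical monocyte-like cells at 12 months by 1.09 (0.97 to 1.20), clusters 25 against 4. At 20 months the ratio was 0.12 (−0.04 to 0.27). There 96 SM/J cells of cluster 25 held 517 CPM (467 to 570), beside 371 (354 to 388) in BL/6 cells of cluster 4. The other 22 SM/J cells, inside cluster 4, held 82.9 CPM (52.6 to 124), from 23 UMIs. The 20-month ratio was turned by TMM scaling and ran from −0.48 without aliquot 2 to 0.54 without aliquot 1. The 12-month ratio kept its side of 1.5-fold in all 13 alternatives, from 0.80 to 1.25. At 12 months the interferon list there had 22 of 28 genes higher and 1 lower in SM/J, against 20.4% of all genes past 1.5-fold. The summed B cell markers of these cells were 145, 115, 156 and 253 CPM, and were not tested against the result. In CD8 naive T-like cells Ly6c2 differed by 0.04 (−0.13 to 0.21) and −0.42 (−0.63 to −0.21), and in NK-like cells by −0.34 (−0.72 to 0.02) and 0.52 (0.19 to 0.85), all within 1.5-fold. Adding the Ly6c1 counts turned none of the 9 strain ratios of Ly6c2, the ones computed with the sum.

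Ly6c1 in CD4 naive T-like cells was higher in SM/J at 12 months, 0.92 (0.23 to 1.64), and lower at 20 months, −1.09 (−2.16 to −0.18), with aliquots apart at both ages. In CD4 other T-like cells at 12 months SM/J had 18 UMIs against 4, a log2 ratio of 2.78 (1.26 to 4.48). Ly6c2 in that class rested on 8 against 6 UMIs at 12 months and 17 against 6 at 20 months, with log2 ratios of 1.10 (−0.53 to 2.76) and 2.20 (0.86 to 3.64) and overlapping aliquots.

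Ly6d and Ly6e were within 1.5-fold in most strain comparisons. The SM/J side had more Ly6d, by 0.31 (0.24 to 0.38) and 0.35 (0.24 to 0.45) in follicular and by 0.44 (0.37 to 0.51) and 0.22 (0.13 to 0.31) in other B-like cells, with aliquots apart each time and each within 1.5-fold. Other limits on mitochondrial UMIs turned 3 of these 4 small differences, to between −0.07 and −0.03. Inside the follicular clusters the few cells of the other strain went the other way, SM/J lower at both ages. In cluster 0 SM/J cells held Ly6d at 961 (780.4 to 1171) and 565 (394 to 786) CPM at 12 and 20 months, beside 1018 and 999 in BL/6. In cluster 10 BL/6 cells held 1365 (1137 to 1625) and 1656 (1358 to 1999) CPM, beside 1289 and 1358 in SM/J. Ly6d in NK-like cells at 12 months was called on 9 UMIs against 0, beside the B cell marker sums given above. Ly6e was past 1.5-fold in CD4 other T-like cells at 12 months, 559.5 CPM against 365 and a ratio of 0.62 (0.28 to 0.95). At 20 months it was −0.09 (−0.41 to 0.22). Ly6e at 12 months stayed past 1.5-fold there in 7 of 12 alternatives, and was 0.18 with at most 5% mitochondrial UMIs. In CD4 naive T-like cells it was higher in SM/J at 0.55 (0.23 to 0.89) and 0.46 (0.10 to 0.81), and in other B-like cells at 20 months at 0.52 (0.42 to 0.62), with aliquots apart. In CD8 naive T-like cells it was 0.48 (0.22 to 0.75) at the younger and −0.39 (−0.71 to −0.07) at the older age, again with aliquots apart. In the monocyte-like classes it lay between −0.12 and 0.21.

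Of 37 further Ly6 and uPAR genes, all in the files, 0 to 2 passed the level filter in any class. Plaur, the urokinase receptor, had 13992 UMIs and Ly6i, a close relative of Ly6c, had 1222. Ly6i was lower at 20 months in nonclassical monocyte-like cells, from 160.2 to 27.7 CPM in BL/6 (−2.49, −2.77 to −2.21) and from 140.1 to 41.7 CPM in SM/J (−1.72, −2.17 to −1.30). In classical monocyte-like cells of SM/J it went from 71.9 to 8.56 CPM (−2.93, −3.96 to −1.99). Plaur was lower in SM/J in other B-like cells by −1.66 at 12 months and −2.18 at 20 months. Some values went up with age. In CD4 naive T-like cells the 1 gene measured in each strain was higher at 20 months, by 1.30 in BL/6 and 1.04 in SM/J. Of all genes 14.2% and 28.2% were past 1.5-fold there. In NK-like cells of BL/6 2 of 2 were higher at 20 months (median 4.56), where 25.3% of all genes were past 1.5-fold.

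Enzymes that make and attach the GPI anchor were read from a list of their own. Of 29 listed genes, 28 in the files, 10 to 11 were measured in the classical monocyte-like cells with age. Of these 2 were lower in BL/6 and none in SM/J, with medians of 0.05 and −0.10. In other B-like cells of SM/J 1 of 10 was higher and 3 lower at 20 months (median 0.13). Of all genes 6.94%, 16.5% and 21% were past 1.5-fold in these 3 comparisons. Over all classes and comparisons the list's medians lay between −0.32 and 0.42.

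By likeness of log2 level over the same 41 sums and 6111 genes, Ly6d was nearest to Iglc3 (r = 0.97) and Iglc2 (0.96), immunoglobulin light chain genes, and to Ms4a1 (0.96), which encodes CD20. Ly6c1 was nearest to Trat1 (0.93), Cd40lg (0.92) and Cd4 (0.91). Ly6c2 was nearest to 1700025G04Rik (0.85) and to the NK cell receptor genes Klrd1 (0.83) and Klrk1 (0.81). Ly6e was nearest to Rel (0.93), Rftn1 (0.92) and Uvrag (0.91), Ly6a to Slamf6 (0.80), Inpp4b (0.78) and Trib2 (0.75), and Ly6k to Aff1 (0.72) and Ighm (0.71).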

How the data were processed

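The values used are raw UMI counts in 4 deposited matrices, with Cell Ranger 7.0.1 named in their headers (mm10 and Seurat 4.3.0 stand in the submitters' processing notes). The cell calling is not given in the sources used here. Cells with at least 500 UMIs, 200 genes and at most 10% mitochondrial UMIs were kept, and doublets called by Scrublet (expected rate 0.06) were left out, 21 to 42 per library. Counts were scaled to 10000 per cell and 2000 variable genes, without the Ly6 and uPAR genes, gave 30 components and Leiden clusters (resolution 1.0, 26 clusters; scanpy 1.11.5, leidenalg 0.10.2). Cluster 18, with markers of both B cells and monocytes, was left unnamed after its values were seen. UMI sums per class and library are given as CPM with exact Poisson 95% intervals, ratios as log2 of CPM + 1 with conditional binomial intervals. Shares of cells are of cells thinned to 1000 UMIs, 24 to 96 shallower cells per library left out. The calculation was tested on simulated data. TMM factors came from edgeR 4.0.16. Gene positions are from the GENCODE annotation of GRCm38, the build named mm10. Named genes are all members, for each the 3 genes of highest correlation, and the list genes of largest ratio, some of which are not reported here. Members and lists were chosen with earlier results of these data known.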

Additional observations from a re-analysis of the deposited data

Results flagged for a closer look

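The age ratio of 2 members pointed opposite ways in the strains, with every aliquot of the older library on 1 side of every aliquot of the younger and both counting intervals away from 0. In other B-like cells Ly6a had a log2 ratio of −0.46 in BL/6 and 0.88 in SM/J, the latter 0.05 with equal weight to clusters 12 and 13. In CD4 naive T-like cells Ly6c1 had 1.00 in BL/6 and −1.02 in SM/J, the latter from 10 UMIs at 20 months and −0.52 without aliquot 2. Ly6e in CD8 naive T-like cells also had aliquots apart and opposite ratios, 0.55 in BL/6 and −0.32 in SM/J, but the SM/J interval reached 0.01. The difference between the strains was not tested in any of these cases, since each strain and age is 1 library.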

How the results depend on the processing

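Without a filter on the level, the counts of called pairs were 17 (age, BL/6), 22 (age, SM/J), 23 (strain, 12 months) and 22 (strain, 20 months), against 5, 10, 11 and 6. Leaving out 1 aliquot gave 5 to 6, 10 to 13, 8 to 12 and 6 to 8. Directions turned in 5 of the called ratios, and the cause was not tested. Ly6a in nonclassical monocyte-like cells, SM/J over BL/6 at 12 months, was 0.26 with at most 5% and 0.030 with at most 20% mitochondrial UMIs, and 0.11 with the mixed cluster 18 kept, an alternative chosen after seeing the data. Ly6c1 in CD4 other T-like cells of SM/J with age was 0.063 with at most 5%. Ly6c2 in the same comparison was −1.81 with members allowed in clustering, −0.28 with at most 20%, −0.54 with at least 1000 UMIs per cell, and −0.23 to 2.16 without 1 aliquot. Ly6c2 in that class, SM/J over BL/6 at 12 months, was −1.43 at resolution 2.0, −1.36 with at most 5%, −0.37 with doublets kept, and −0.42 to 3.30 without 1 aliquot. Ly6d in NK-like cells of SM/J with age was 0.083 with doublets kept. TMM factors shifted the median of all genes by 0.11 and 0.22 in other B-like cells (age in SM/J, strain at 20 months), by −0.12 in CD4 naive T-like cells (age in SM/J), by −0.14 at both ages in the strain ratios of classical monocyte-like cells, and by −0.15 and −0.11 in nonclassical ones, with no called ratio turned. They turned 3 strain ratios near 0: Ly6c2 in classical (0.12 at 20 months) and nonclassical (0.07 at 12 months) monocyte-like cells and Ly6e in other B-like cells (−0.02 at 12 months). No CD8 naive T-like class of 50 cells formed with at most 20% mitochondrial UMIs or at least 1000 UMIs, so its ratios were not run there. Levels fell outside their intervals in 67 of 138 cases with at most 5% and 46 of 130 with at most 20% mitochondrial UMIs. Of 192 shares, 121 were lower thinned to 500 UMIs and 150 higher unthinned. No paired analysis was possible because each strain and age is 1 library. Depth limits the ratios that rest on fewer than 20 UMIs in a library, among them those of Ly6c1 and Ly6c2 in CD4 other T-like cells, Ly6d in NK-like cells and the later Ly6c1 and Ly6a values in SM/J naive T-like cells.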

Other observations

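Some classes were too small for the comparisons. Basophil-like cells, 40, 57, 15 and 11 cells in BL/6 at 12 and 20 months and SM/J at 12 and 20 months, held Ly6c2 at 40.8, 136, 572 and 646 CPM. Unthinned, 7.5%, 12.3%, 20% and 18.2% of them had a Ly6c2 UMI, so the sums rested on few cells. Ly6e in the same cells stood at 693, 604, 1013 and 1314 CPM. Plasma cell-like cells of BL/6 at 20 months, 43 cells, held Ly6c2 at 129 CPM (101 to 163) and Ly6e at 371 CPM (321 to 426). Macrophage-like cells, 398 of whose 501 cells came from SM/J at 20 months, held Ly6e at 339 to 444 CPM and Ly6a at 0 to 26.1 CPM. Ly6a in transitional B-like cells of SM/J at 12 months ran from 29.6 to 341 CPM over the aliquots.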
